A study of Mus musculus with 22 samples.

Results

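The constitutive proteasome subunit genes were taken as every row of both expression tables whose symbol begins with Psma, Psmb, Psmc or Psmd followed by a number, without the immunoproteasome genes Psmb8, Psmb9 and Psmb10, that reached 1 FPKM in at least 2 libraries of its table. FPKM are fragments scaled to transcript length and to the mapped fragments of the library, so levels can be compared between genes. Of 24353 rows per file, 39 matched the pattern, 36 were left without the immunoproteasome genes, and the same 34 reached the threshold in both fractions: Psma1 to Psma7, Psmb1 to Psmb7, Psmc1 to Psmc6 and Psmd1 to Psmd14. The member just inside the threshold was Psmd9, with 5.13 to 9.49 FPKM in CD45-positive and 6.38 to 10.2 FPKM in CD45-negative libraries. The rows just outside were Psma8, the testis alpha subunit, which reached at most 0.86 FPKM, and Psmb11, the thymus beta subunit, which was listed at 0 in every library.

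Bulk RNA was sequenced from EMT6 tumours, a mouse mammary carcinoma line, grown from 200000 cells injected into the inguinal fat pads, on both sides, of wild type BALB/c mice aged 5 to 6 weeks. Dissociated tumours were split with beads against CD45, a leukocyte surface protein, into a CD45-positive fraction enriched for leukocytes (10 libraries) and a CD45-negative fraction enriched for tumour cells (12 libraries). The groups were JQ1, JQ1 with anti-PD-L1, JQ1 with paclitaxel, all 3 drugs (the 3-drug group), and vehicle, with 2 libraries each except for 3 CD45-negative libraries each of JQ1 with paclitaxel and of the 3-drug group. JQ1, which blocks BET bromodomain proteins, was given by gavage each day at 50 mg/kg, and paclitaxel, which stabilises microtubules, and the antibody anti-PD-L1 (clone 10F.9G2) were injected intraperitoneally at 10 mg/kg, 2 times a week. Every drug-treated group had JQ1, so neither paclitaxel nor anti-PD-L1 was given alone. In the groups on JQ1 alone, on JQ1 plus anti-PD-L1 and on vehicle, library titles carry 1 mouse code per group, with R and L, so that p-values measure the spread between tumours that may come from 1 animal.

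The 26S proteasome degrades proteins marked with ubiquitin. Its 20S core is a stack of rings of alpha subunits, which form the gate, and of beta subunits, of which Psmb5, Psmb6 and Psmb7 carry the proteolytic sites; interferon-induced Psmb8, Psmb9 and Psmb10 can take their places in the immunoproteasome, which favours peptides presented on MHC class I. The 19S cap holds ATPases (Psmc genes), which unfold substrates, and non-ATPase subunits (Psmd genes), among them the ubiquitin receptor Psmd4 and the deubiquitinase Psmd14, while Psmd5, Psmd9 and Psmd10 encode chaperones that leave the cap once its base is assembled. The transcription factor Nrf1, encoded by Nfe2l1, raises subunit genes together through antioxidant response elements when proteasome activity is short.

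Promoter windows are shown for the 2 members that passed a test below, Psmd5 and Psmd10, and for the catalytic subunit Psmb5, whose window holds an antioxidant response element core. Each runs from 250 bases before to 50 bases after the gene's start, in mouse GRCm38.p6 from RefSeq, read on the minus strand, at chr2:34870913-34871212 for Psmd5, chrX:140956662-140956961 for Psmd10 and chr14:54617946-54618245 for Psmb5. Capitals mark a palindrome of TCTCG and its reverse complement in Psmd5, CCAAT on either strand in Psmd10, and TGACNNNGC in Psmb5.
Psmd5: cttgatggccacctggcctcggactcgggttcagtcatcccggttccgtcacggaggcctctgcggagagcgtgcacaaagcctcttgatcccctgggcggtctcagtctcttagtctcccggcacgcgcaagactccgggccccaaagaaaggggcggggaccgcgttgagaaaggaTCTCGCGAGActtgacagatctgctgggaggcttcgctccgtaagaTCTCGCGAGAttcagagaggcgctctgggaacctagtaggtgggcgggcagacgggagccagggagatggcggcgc
Psmd10: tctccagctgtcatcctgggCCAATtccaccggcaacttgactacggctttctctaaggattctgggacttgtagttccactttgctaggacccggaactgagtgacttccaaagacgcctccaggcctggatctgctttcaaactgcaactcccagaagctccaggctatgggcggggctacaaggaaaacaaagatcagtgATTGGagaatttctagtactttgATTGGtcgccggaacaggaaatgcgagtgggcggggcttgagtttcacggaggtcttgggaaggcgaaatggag
Psmb5: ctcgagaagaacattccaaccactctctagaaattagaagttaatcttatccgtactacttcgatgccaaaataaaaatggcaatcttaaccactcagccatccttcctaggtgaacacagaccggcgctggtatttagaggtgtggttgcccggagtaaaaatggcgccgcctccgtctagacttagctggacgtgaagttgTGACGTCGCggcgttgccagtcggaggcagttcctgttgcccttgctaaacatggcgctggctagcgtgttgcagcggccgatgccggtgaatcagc

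RefSeq promoter windows were matched for 28 of the 34 members. On either strand, the antioxidant response element core TGACNNNGC lay in the windows of 5 of 28 members (17.9%), namely Psmb5, Psmb6, Psmc6, Psmd9 and Psmd12, against 13.99% of 27025 genes with a window of this length. CCAAT lay in 11 members (39.3%, against 41.1% of all genes), the core of the interferon-stimulated response element, GAAA and GAAA with 2 bases between, in 3 (10.7%, against 3.99%), and TTCNNNGAA, the gamma interferon activation site, in 1, Psmd2 (3.57%, against 9.55%). The palindrome of TCTCG and its reverse complement, searched for after the Psmd5 window had been read, occurs there 2 times, in no other member's window and in 0.525% of all genes. No other motif of those searched lies in the 3 windows shown, and the matches describe letters, not binding.

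The members were among the abundant transcripts of both fractions, and their levels differed by role in the complex. The median member stood at 63.5 FPKM in the CD45-positive fraction, above 92.6% of genes tested there, and at 102 FPKM in the CD45-negative fraction, above 94.6%. Together the 34 members took 0.636% to 0.881% of the summed FPKM of CD45-positive and 1.03% to 1.29% of that of CD45-negative libraries. By medians over libraries, the beta subunits without a proteolytic site were highest (median of 4 genes 132 FPKM in CD45-positive and 193 FPKM in CD45-negative cells), followed in the CD45-negative fraction by alpha subunits (137 FPKM) and catalytic beta subunits (134 FPKM). The 6 ATPases had 66.3 FPKM in CD45-positive and 102 FPKM in CD45-negative cells, the 11 non-ATPase subunits 48.3 and 77.6 FPKM in the same order, and the 3 assembly chaperones 13.2 and 22.7 FPKM.

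Neighbours in the order of levels mostly overlapped in their ranges over libraries. Among alpha subunits Psma7 was highest, with a median of 164 FPKM (136 to 202) in CD45-positive and 306 FPKM (205 to 376) in CD45-negative libraries, and Psma3 lowest, with 35.9 FPKM (31.5 to 39.6) and 68.7 FPKM (50.3 to 88.7) in the same order of fractions. The range of Psma7 overlapped that of the next alpha subunit in both fractions, and Psma3 lay clear of the next one, Psma5, in CD45-positive cells. The non-catalytic beta subunits ran between Psmb4 (94.3 FPKM in CD45-positive, 175 FPKM in CD45-negative cells) and Psmb2 (166 FPKM in CD45-positive, 262 FPKM in CD45-negative cells). Among catalytic subunits Psmb6, the caspase-like site, was highest and Psmb7, the trypsin-like site, lowest, with 176 and 59.7 FPKM in CD45-positive and 187 and 107 FPKM in CD45-negative cells. The chymotrypsin-like subunit Psmb5 lay between them, and the order Psmb6, Psmb5, Psmb7 held in each of the 22 libraries. Psmb6 was the first of the 34 in 6 of 10 CD45-positive libraries, while Psma7 was first in 11 of 12 CD45-negative ones.

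In the cap, Psmc6 was the lowest ATPase in both fractions, at 31.0 FPKM in CD45-positive and 44.3 FPKM in CD45-negative cells. The highest was Psmc4 in CD45-positive cells (77.8 FPKM) and Psmc3 in CD45-negative cells (109 FPKM, with Psmc4 at 104 FPKM), but the ranges of Psmc1, Psmc3 and Psmc4 overlapped in each fraction. Of the non-ATPase subunits, the highest was Psmd8 in CD45-positive cells (135 FPKM) and Psmd4 in CD45-negative cells (125 FPKM). The lowest were Psmd1, a scaffold of the base, in CD45-positive cells (36.3 FPKM) and Psmd13 in CD45-negative cells (52.7 FPKM). Psmd9 was last of the 34 in all 22 libraries.

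**Figure D1:**
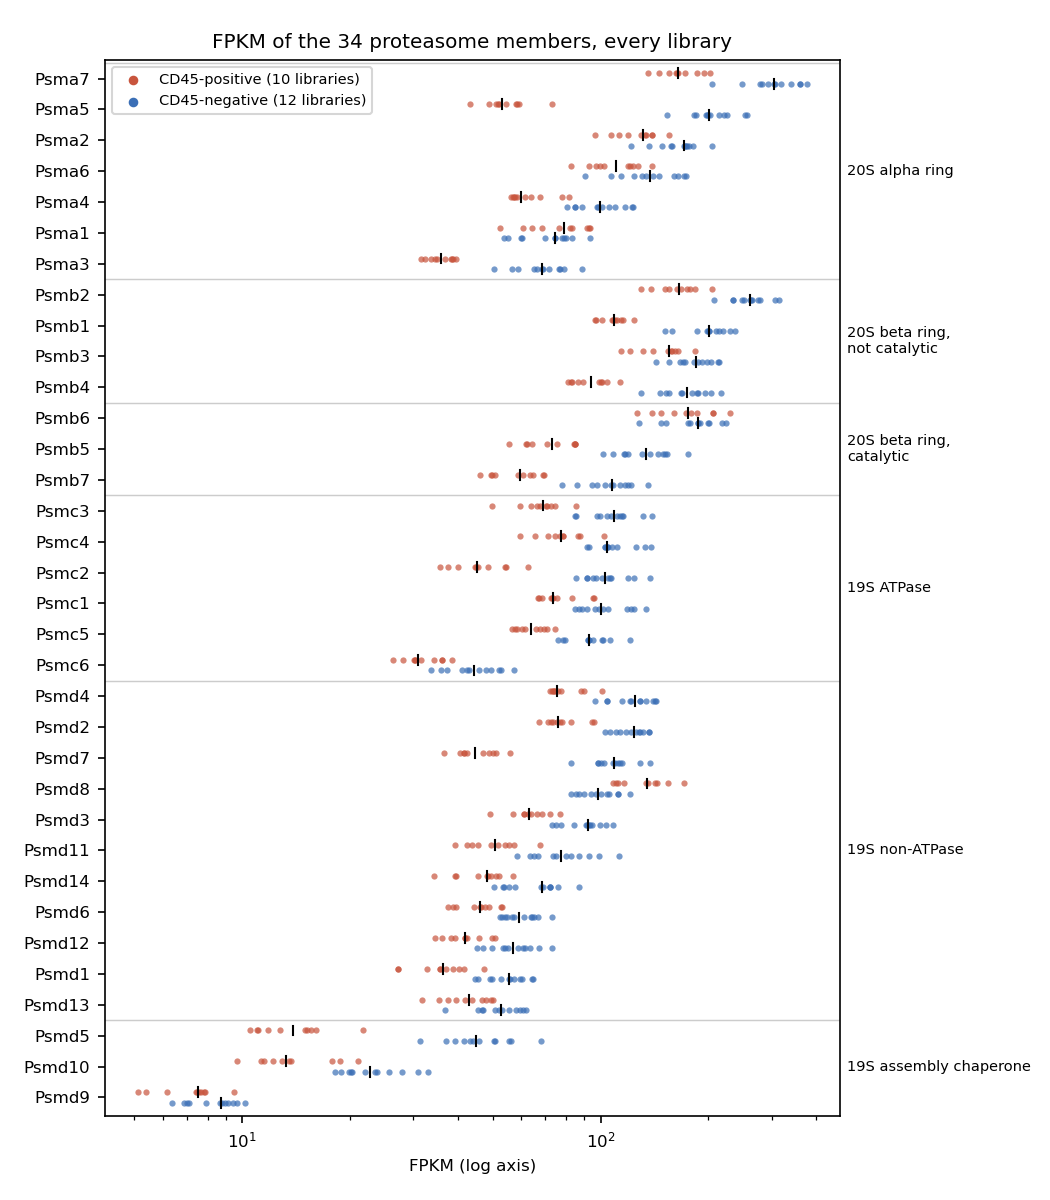
FPKM (log axis) of each of the 34 members, with a point for each library (10 CD45-positive, upper row of each gene, and 12 CD45-negative, lower row) and a black tick at the median. By median, the assembly chaperones lie lowest in CD45-positive cells. In CD45-negative cells the chaperone Psmd5 (44.9 FPKM) lies above the ATPase Psmc6 (44.3 FPKM). Psmd9 is last in all 22 libraries. CD45-positive points lie left of CD45-negative ones for most genes, with Psmd8 the other way round.

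In the 10 tumours with both fractions, levels in CD45-positive cells were below those in CD45-negative cells for most members. The ratio of CD45-positive to CD45-negative FPKM had a median of 0.656 over the 34 members, against 0.807 over the 9618 genes tested in both, and 24 members were below 1 in each of the 10 tumours, against 33.7% of all genes. No member was above 1 in each tumour (14.5% of all genes were), and 10 were mixed. The tables were made separately, so these ratios are values side by side and were not tested. The fractions differed in makeup, whose part in the ratios was not tested: Ptprc, which encodes CD45, was 14.8 times as high in the CD45-positive fraction (5.38 to 31.1). The 10 pan-leukocyte markers summed to 2714 to 4491 FPKM in CD45-positive and 213 to 668 FPKM in CD45-negative libraries, and the 7 epithelial markers to 12.4 to 91.2 and 298 to 889 FPKM in the same order. The 9 macrophage and monocyte markers still summed to 751 to 3305 FPKM in CD45-negative libraries. In bulk samples, fewer cells of a type and less RNA per cell cannot be told apart.

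The members did not share 1 ratio. Psma5 had a median ratio of 0.265 (0.204 to 0.355), Psmd5 of 0.268 (0.197 to 0.587), Psmd7, a partner of Psmd14, of 0.415 (0.324 to 0.504), and the ATPase Psmc2 of 0.446 (0.299 to 0.537), each below 1 in 10 of 10 tumours. At the other end Psmd8 stood at 1.36 (0.970 to 1.72), above 1 in 9 of 10 tumours, and the alpha subunit Psma1 at 1.03 (0.728 to 1.52), above 1 in 5. Of the catalytic subunits, Psmb6 had 0.959 (0.674 to 1.35), Psmb5 0.576 (0.373 to 0.617) and Psmb7 0.531 (0.470 to 0.776). Psma5 had 43.2 to 73.1 FPKM in CD45-positive and 153 to 257 FPKM in CD45-negative libraries, ranges that do not meet. Transcripts at least 95% identical over at least 50% of the length, mostly processed pseudogenes, exist for 7 members including Psma5 and Psmb5, and how the authors' counting assigned shared reads is not given.

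Among all 34 members and 7 comparisons in each fraction, 2 of 476 differences passed the test. Both were decreases of assembly chaperones in CD45-negative cells. Of all genes tested, 0.00928% (interaction) to 25.0% (added anti-PD-L1) passed per comparison in CD45-negative cells. In CD45-positive cells 0.0% (interaction) to 4.84% (JQ1 with paclitaxel against vehicle) did. The test was limma on log2(FPKM + 1), fitted once per fraction over all genes, with Benjamini-Hochberg adjusted p under 0.05. The largest of the 476 estimates was 0.69 in size on the log2 scale, and 466 of the 95% confidence intervals lay within 1 of 0, that is, a change of 1 on the log2 scale was outside them. Over all genes tested the share of such intervals in CD45-negative cells was 65.5% for JQ1, 80.6% for JQ1 with anti-PD-L1, 72.4% for JQ1 with paclitaxel and 81.8% for the 3-drug group against vehicle, 93.8% for added paclitaxel, 86.9% for added anti-PD-L1 and 65.6% for their interaction, where 33 or 34 members had one. In CD45-positive cells it was 51.3%, 63.6%, 50.8%, 60.0%, 84.6%, 80.8% and 22.6% in the same order, where 31 to 34 members had one. The median member lay above 94.6% of genes tested in CD45-negative and 92.6% in CD45-positive cells. The share among genes of like level was not taken.

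JQ1 was set against vehicle to ask what BET inhibition alone did. In CD45-negative cells no member passed the test (14.8% of 10780 genes did), although 31 of 34 estimates were below 0. The median member stood at -0.25 on the log2 scale, against a median of -0.05 over all genes, of which 54.1% were below 0. Under another scaling, to a common total, the median of all genes moved by 0.14 to 0.09, and the members' median relative to all genes stayed between -0.26 and -0.17 under the scalings tried.

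The catalytic subunits had the lowest median of the 6 roles, at -0.40 on the log2 scale. Psmb5 had 102 and 149 FPKM in JQ1 tumours, against 144 and 176 FPKM in vehicle tumours. Psmb6 had 128 and 187 FPKM with JQ1, against 187 and 224 FPKM with vehicle. Psmb7 had 78.0 and 103 FPKM with JQ1, against 113 and 136 FPKM with vehicle. The groups overlapped for Psmb5 and did not for Psmb6, by less than 1 FPKM, or for Psmb7. The estimates were -0.37 ± 0.20 for Psmb5, -0.40 ± 0.22 for Psmb6 and -0.46 ± 0.19 for Psmb7 (log2, SE), with limma adjusted p of 0.226, 0.237 and 0.117.

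At the other ends were Psma6, an alpha subunit, with the lowest estimate (-0.52), and Psmd3, a subunit of the lid, with the highest. Psmd3 had 91.7 and 99.4 FPKM in JQ1 tumours, against 73.0 and 84.4 FPKM in vehicle tumours, which do not overlap (0.28 ± 0.18, limma adjusted p = 0.310). It had the highest estimate of the 34 in 7 of the 8 comparisons with vehicle over both fractions, at 0.11 to 0.30 there, and passed the test in none of them. These comparisons share their vehicle libraries within a fraction.

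Groups did not overlap for 11 members lower with JQ1 (33.0% of all genes) and 2 members higher, Psmd3 and Psmd5 (27.0%). At an unadjusted p under 0.05 there were 4 members (30.9% of all genes). The median rested on JQ1 replicate 1: its median member lay at -0.49 from the vehicle mean, and that of JQ1 replicate 2 at -0.01, so that without replicate 1 the members' median was -0.01 and without replicate 2 -0.49. Without vehicle replicate 2 it was -0.14, and under a common total -0.08.

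Some cell type markers and mitotic genes differed in the same comparison. The 6 erythroid markers summed to 1.03 and 3.46 FPKM with JQ1, against 110 and 332 FPKM with vehicle, with 3 of 4 tested called lower and 4 of the 6 at 0 in some library of the fraction. The 7 epithelial markers summed to 298 and 357 FPKM with JQ1, against 507 and 889 FPKM with vehicle, with 3 of 5 tested called lower and 2 of the 7 at 0 in some library. Of fibroblast markers 2 of 7 were called lower, of neutrophil markers 1 of 4 tested, and of mitotic genes 2 of 10. The part of any of these in the result was not tested.

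**Figure D2:**
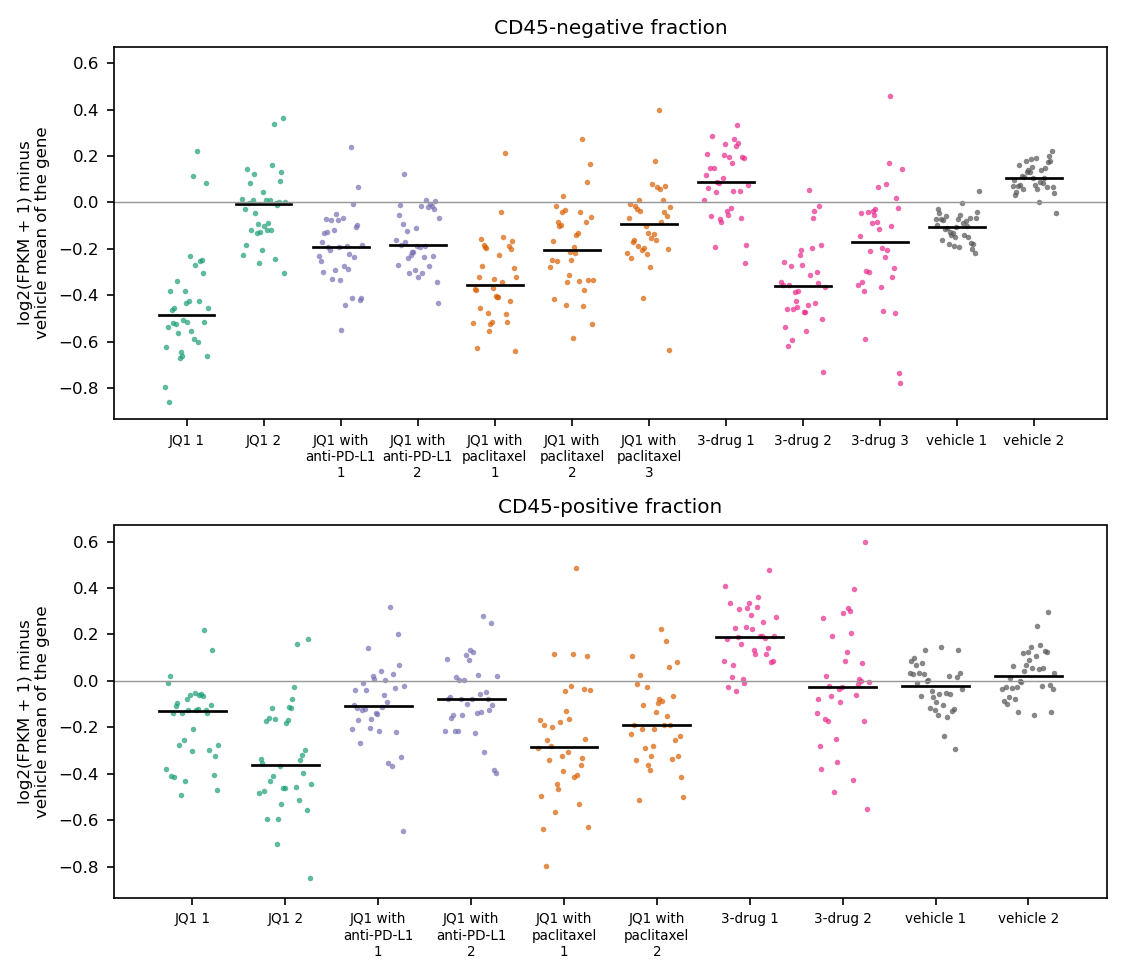
Difference of log2(FPKM + 1) from the vehicle mean of the same gene (y axis), with a point for each of the 34 members in each library (x axis), coloured by group, and a black bar at the library's median member. In the CD45-negative fraction JQ1 replicate 1 has its median at -0.49 and JQ1 replicate 2 at -0.01, and in the CD45-positive fraction 3-drug replicate 1 has the highest median, at 0.19.

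In CD45-positive cells JQ1 gave a like median, -0.25 on the log2 scale, against -0.004 over all genes, with 33 of 34 estimates below 0 (50.3% of all genes). No member passed the test (1.04% of 10340 genes did), with 7 members at an unadjusted p under 0.05 (19.7% of all genes). Groups did not overlap for 22 members lower (26.7% of all genes) and 1, Psmd3, higher (22.4%). The catalytic subunits again had the lowest median, -0.48.

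The members of lowest p were Psmb5 and Psma1. Psmb5 had 62.5 and 55.7 FPKM in JQ1 cells, against 84.7 and 84.4 FPKM in vehicle cells (-0.51 ± 0.17, limma adjusted p = 0.153). Psma1 had 68.8 and 60.7 FPKM with JQ1, against 91.4 and 92.7 FPKM with vehicle (-0.50 ± 0.18, limma adjusted p = 0.167). Both groups lay apart for both genes. Psmd10 had the lowest estimate, -0.66 ± 0.27 (limma adjusted p = 0.229), with 12.9 and 9.70 FPKM in JQ1 cells, against 18.8 and 17.8 FPKM in vehicle cells. The median was -0.36 without JQ1 replicate 1 and -0.13 without JQ1 replicate 2. Mitotic genes, 10 of 10 above 0 in every library, summed to 54.2 and 68.5 FPKM with JQ1 and to 138 and 152 FPKM with vehicle, with 1 of 10 called lower. The 6 endothelial markers, all above 0 in every library, summed to 21.5 and 19.3 FPKM with JQ1 and to 3.46 and 6.87 FPKM with vehicle, with 2 of 6 called higher. The part of either in the result was not tested.

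JQ1 with paclitaxel, set against vehicle, gave 1 of the 2 calls: Psmd10, the chaperone also known as gankyrin, fell in CD45-negative cells. It had 20.1, 22.0 and 20.2 FPKM with JQ1 and paclitaxel, against 31.0 and 32.9 FPKM with vehicle, and the groups did not overlap (-0.60 ± 0.18, limma adjusted p = 0.0392). The background of calls was 17.6% of 10780 genes, so that 1 of 34 members is a smaller share than among all genes. The call was lost in 9 of 19 alternatives, including the omission of any 1 of the 3 libraries with paclitaxel or of either vehicle library, with adjusted p between 0.0159 and 0.224 over the 19.

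Psmd10 was also lower than vehicle in the other groups of the fraction. It had 19.8 and 25.7 FPKM with JQ1, 23.7 and 23.4 FPKM with JQ1 and anti-PD-L1, and 27.98, 18.9 and 18.2 FPKM in the 3-drug group, against 31.0 and 32.9 FPKM with vehicle. None of the 10 treated libraries reached a vehicle library, but these comparisons share the same 2 vehicle libraries and did not pass the test. Mitotic genes, 10 of 10 above 0 in every library, summed to 133 to 148 FPKM with JQ1 and paclitaxel and to 298 and 318 FPKM with vehicle, and the erythroid markers to 0.707 to 2.20 FPKM and to 110 and 332 FPKM in the same order of groups. With JQ1 and paclitaxel 8 of 10 mitotic genes, 3 of 4 erythroid, 3 of 4 neutrophil and 2 of 5 epithelial markers tested were called lower and 1 of 4 endothelial markers higher. The part of any of these in the result was not tested. No gene of the tables overlaps Psmd10, and no other transcript of at least 95% identity over 50% of its length was found.

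**Figure D3:**
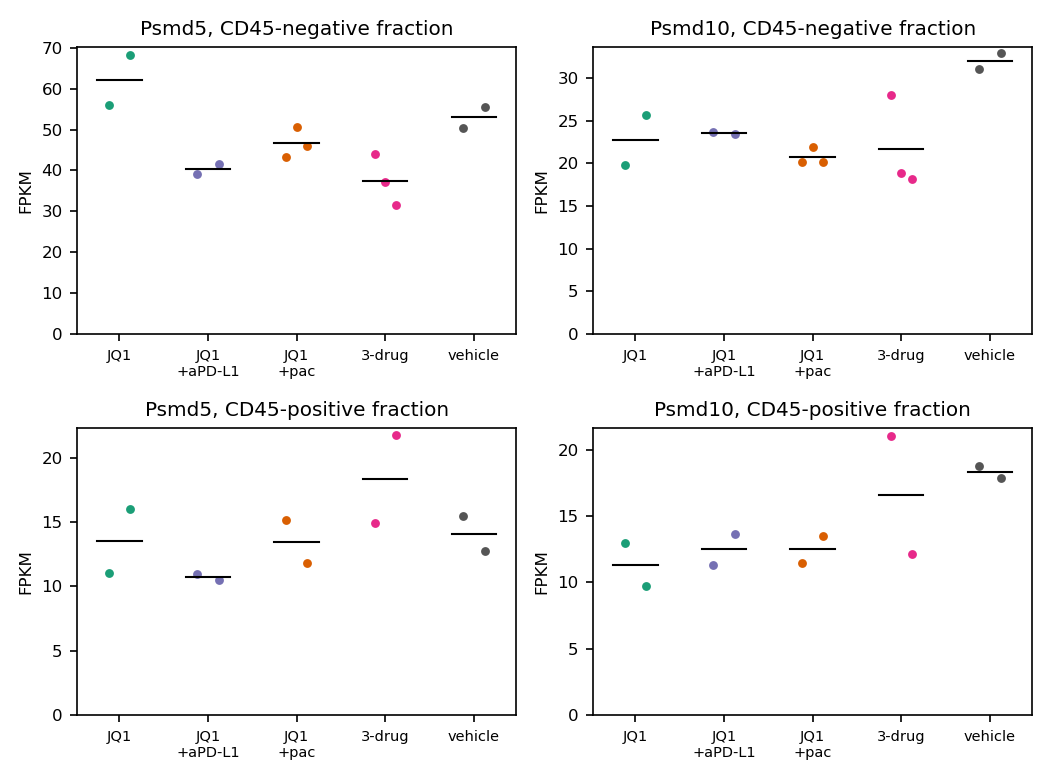
FPKM (y axis from 0) of Psmd5 and Psmd10, with a point for each library and a bar at the group mean, by treatment, CD45-negative above and CD45-positive below. In CD45-negative cells Psmd10 lies between 18.2 and 27.98 FPKM in all treated libraries and above 31 FPKM with vehicle, and Psmd5 is highest with JQ1, at 56.1 and 68.3 FPKM.

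Apart from Psmd10, the median member stood at -0.20 on the log2 scale in CD45-negative cells given JQ1 and paclitaxel, against -0.07 over all genes, with 32 of 34 estimates below 0 (55.4% of all genes). It was -0.33 without vehicle replicate 1, -0.12 without vehicle replicate 2 and -0.09 under a common total. Psmb5 had 108, 117 and 119.6 FPKM, against 144 and 176 FPKM with vehicle (-0.47 ± 0.18, limma adjusted p = 0.0954). Psmb7 was at -0.35 and Psmb6 at -0.24 on the same scale. Groups did not overlap for 12 members lower (29.2% of all genes) and for 1, Psmd3, higher (19.4%). 3 members had an unadjusted p under 0.05 (32.2% of all genes).

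In CD45-positive cells given JQ1 and paclitaxel no member passed (4.84% of 10340 genes did), with 4 at an unadjusted p under 0.05 (21.3%). The median member was -0.25 on the log2 scale, against -0.09 over all genes, and 30 of 34 estimates were below 0 (57.7%). Without replicate 1 of JQ1 with paclitaxel the median was -0.19, against -0.18 over all genes, and without replicate 2 it was -0.29, against -0.01 over all genes. Psma1 had the lowest p, with 52.5 and 64.2 FPKM, against 91.4 and 92.7 FPKM with vehicle (-0.66 ± 0.18, limma adjusted p = 0.0710). Psma6 had 82.9 and 102 FPKM, against 139 and 121 FPKM with vehicle (-0.49 ± 0.19, limma adjusted p = 0.178). Groups lay apart for 20 members, all lower (33.5% of all genes lower, 18.9% higher).

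Some cell type markers and mitotic genes differed in this comparison too. The 6 endothelial markers, all above 0 in every library, summed to 39.5 and 56.0 FPKM with JQ1 and paclitaxel, against 3.46 and 6.87 FPKM with vehicle, and 6 of 6 were called higher. The 10 pan-leukocyte markers summed to 2838 and 2714 FPKM, against 4170 and 3951 FPKM with vehicle, with 2 of 10 called lower. Mitotic genes, with 4 of 10 called lower, summed to 51.5 and 36.8 FPKM, against 138 and 152 FPKM with vehicle. Fibroblast markers had 2 of 6 tested called higher and neutrophil markers 1 of 5 lower, and the part of any of these in the result was not tested.

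JQ1 with anti-PD-L1, set against vehicle, had a median of -0.16 in CD45-negative cells (all genes -0.03), with no member called (0.25% of genes) and 2 at an unadjusted p under 0.05 (14.4%). The members of lowest p there were Psmc1, an ATPase (-0.44 ± 0.19, limma adjusted p = 0.323), and Psmd5 (-0.38 ± 0.17, limma adjusted p = 0.341). The median was -0.30 without vehicle replicate 1, -0.08 without vehicle replicate 2 and -0.05 under a common total. Groups lay apart for 17 members lower (27.6% of genes) and for none higher (22.2%). In CD45-positive cells its median was -0.07 (all genes -0.06) and turned to 0.02 under median centring, with -0.16 under a common total and -0.11 without replicate 2 of JQ1 with anti-PD-L1. No member was called there (0.029% of genes) and 0 had an unadjusted p under 0.05 (7.11%), with 13 members lower without overlap (27.1%) and 1 higher (14.8%). Psmd10 (-0.52, limma adjusted p = 0.773) and Psmd11 (-0.34, adjusted p = 0.811) had the lowest p.

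The 3-drug group had a median member of -0.16 in CD45-negative cells (all genes -0.07), with no member called (1.63% of genes) and 2, Psmd5 and Psmd10, at an unadjusted p under 0.05 (19.6%). Psmd5 was at -0.50 ± 0.16 (limma adjusted p = 0.116) and Psmd10 at -0.57 ± 0.18 (adjusted p = 0.119). Groups lay apart for 4 members, Psmb1, Psmd4, Psmd5 and Psmd10, all lower (24.2% of genes lower, 14.0% higher). The median was -0.05 without 3-drug replicate 2, which put it 0.01 above that of all genes, -0.26 without 3-drug replicate 1, -0.28 without vehicle replicate 1, -0.04 without vehicle replicate 2 and -0.05 under a common total. Of erythroid markers 3 of 4 tested were called lower, of neutrophil markers 2 of 4 and of mitotic genes 1 of 10, whose part was not tested. In CD45-positive cells the median was 0.09 (all genes 0.01), with 11 of 34 estimates below 0 (49.0% of all genes), and no member was called (0.135% of genes) or had an unadjusted p under 0.05 (8.73%). There the 6 members that lay apart were higher (18.1% of genes higher, 20.5% lower): Psma4, Psmb4, Psmc1, Psmc6, Psmd2 and Psmd3. Psmd2, the large scaffold of the base, had 96.0 and 94.8 FPKM, against 71.3 and 82.7 FPKM with vehicle (0.31 ± 0.16, limma adjusted p = 0.613), and Psma4 had 81.7 and 78.0 FPKM, against 67.7 and 61.5 FPKM with vehicle (0.30 ± 0.16, adjusted p = 0.613). The 3 catalytic subunits were the other way, at -0.18 to -0.12. The median was -0.02 without 3-drug replicate 1, 0.19 without 3-drug replicate 2, 0.04 without vehicle replicate 1 and 0.05 under a common total.

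The design also gives the change on adding anti-PD-L1 to JQ1, as the mean of its change without and with paclitaxel. Psmd5, a chaperone that binds the ATPase Psmc2, fell in CD45-negative cells, the second of the 2 calls, where 25.0% of 10780 genes passed. Psmd5 had 39.2 and 41.5 FPKM with JQ1 and anti-PD-L1 and 44.0, 37.1 and 31.4 FPKM in the 3-drug group, against 56.1 and 68.3 FPKM with JQ1 and 43.3, 50.6 and 45.9 FPKM with JQ1 and paclitaxel. The JQ1 pair of groups lay apart, and the pair with paclitaxel overlapped by 1 library of each. The difference was -0.46 ± 0.11 (limma adjusted p = 0.0109), with adjusted p of 0.0032 to 0.104 over 19 alternatives, and was lost in 1 of them, with 1 value per mouse code.

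Vehicle tumours had 50.5 and 55.5 FPKM of Psmd5, between the JQ1 group and the groups with anti-PD-L1. In CD45-positive cells the levels were lower and the difference was 0.06 ± 0.19 (limma adjusted p = 0.897), which was not compared by test with that in CD45-negative cells. There Psmd5 had 10.98 and 10.5 FPKM with JQ1 and anti-PD-L1 and 14.96 and 21.8 FPKM in the 3-drug group, against 11.03 and 16.1 FPKM with JQ1 and 15.2 and 11.8 FPKM with JQ1 and paclitaxel. On the opposite strand Psmd5 is overlapped by Cutal, which was listed at 0 in all 22 libraries.

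Some cell type markers and mitotic genes were also called with added anti-PD-L1 in CD45-negative cells. The 10 pan-leukocyte markers, all above 0 in every library, had 3 called higher and summed to 337 to 668 FPKM in the 5 libraries with anti-PD-L1 and 213 to 603 FPKM in the 5 without. Mitotic genes had 4 of 10 called higher and summed to 148 to 282 FPKM with it and 133 to 238 FPKM without. Epithelial (2 of 5 tested), fibroblast (2 of 7), erythroid (2 of 4), macrophage and monocyte (1 of 9) and neutrophil markers (1 of 4) were called higher too. The part of any of these in the changes of Psmd5, and of Psmb8 and Psmb10 in the same comparison, was not tested.

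None of the other 33 members was called in CD45-negative cells. The median member was 0.08 on the log2 scale (all genes 0.03), 11 of 34 estimates were below 0 (47.0% of all genes), and Psmd5 was the 1 member at an unadjusted p under 0.05 (38.4%). The sign of the median rested on single libraries: it was -0.05 without JQ1 replicate 1 and -0.01 without 3-drug replicate 1, and 0.18 without JQ1 replicate 2 and 0.13 without 3-drug replicate 2. It was 0.05 without replicate 1 of JQ1 with paclitaxel and 0.04 under a common total. The groups lay apart for Psmc4 alone, which was higher (6.35% of genes higher, 7.05% lower). Psmb7 was at 0.26 ± 0.12 (limma adjusted p = 0.137), Psmb5 at 0.20 ± 0.13 (adjusted p = 0.281) and Psmb6 at 0.17 ± 0.14 (adjusted p = 0.407).

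In CD45-positive cells all 34 estimates for added anti-PD-L1 were above 0, where 48.5% of all genes were below 0. The median member was 0.23 (all genes 0.01) and the estimates ran between 0.05 for Psmd7 and 0.44 for Psma1. No member passed the test (0.832% of 10340 genes did), 8 had an unadjusted p under 0.05 (18.7%), and 10 lay apart and higher (5.64% of genes higher, 3.64% lower). Those 10 were Psma1, Psma7, Psmb3, Psmb5, Psmc3, Psmc5, Psmd2, Psmd9, Psmd13 and Psmd14. Against vehicle, the median member was at -0.25 with JQ1 and at -0.25 with JQ1 and paclitaxel. It was at -0.07 with JQ1 and anti-PD-L1 and at 0.09 in the 3-drug group.

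Psma1 had 76.4 and 83.2 FPKM with JQ1 and anti-PD-L1 and 93.2 and 82.1 FPKM in the 3-drug group, against 68.8 and 60.7 FPKM with JQ1 and 52.5 and 64.2 FPKM with JQ1 and paclitaxel (0.44 ± 0.12, limma adjusted p = 0.120). Psmb3, a beta subunit without a proteolytic site, had 157, 162, 184 and 154 FPKM in the 4 libraries with anti-PD-L1, against 114, 121, 140 and 131 FPKM in the 4 without (0.37 ± 0.11, limma adjusted p = 0.142). Psmb5 had 75.4, 84.7, 85.0 and 71.01 FPKM with it, against 62.5, 55.7, 61.8 and 64.5 FPKM without (0.36 ± 0.12, limma adjusted p = 0.167). For the 3 genes no library with anti-PD-L1 was as low as any without.

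Other measures moved with these libraries. Summed FPKM of all genes was 348201 to 364118 with anti-PD-L1 and 315256 to 336687 without, and the 10 pan-leukocyte markers, each above 0 in every library, summed to 3738 to 4491 FPKM with it and 2714 to 3535 FPKM without, with 0 of 10 called. The 6 endothelial markers, all above 0 in every library, summed to 6.86 to 15.1 FPKM with it and 19.3 to 56.0 FPKM without, and 4 of 6 were called lower. Neutrophil markers had a median difference of 1.43 on the log2 scale and fibroblast markers of -0.71, with none called. With every library scaled to a common total the members' median was 0.12, and relative to all genes it was 0.20 to 0.24 under the scalings tried. The part of any of these in the result was not tested.

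**Figure D4:**
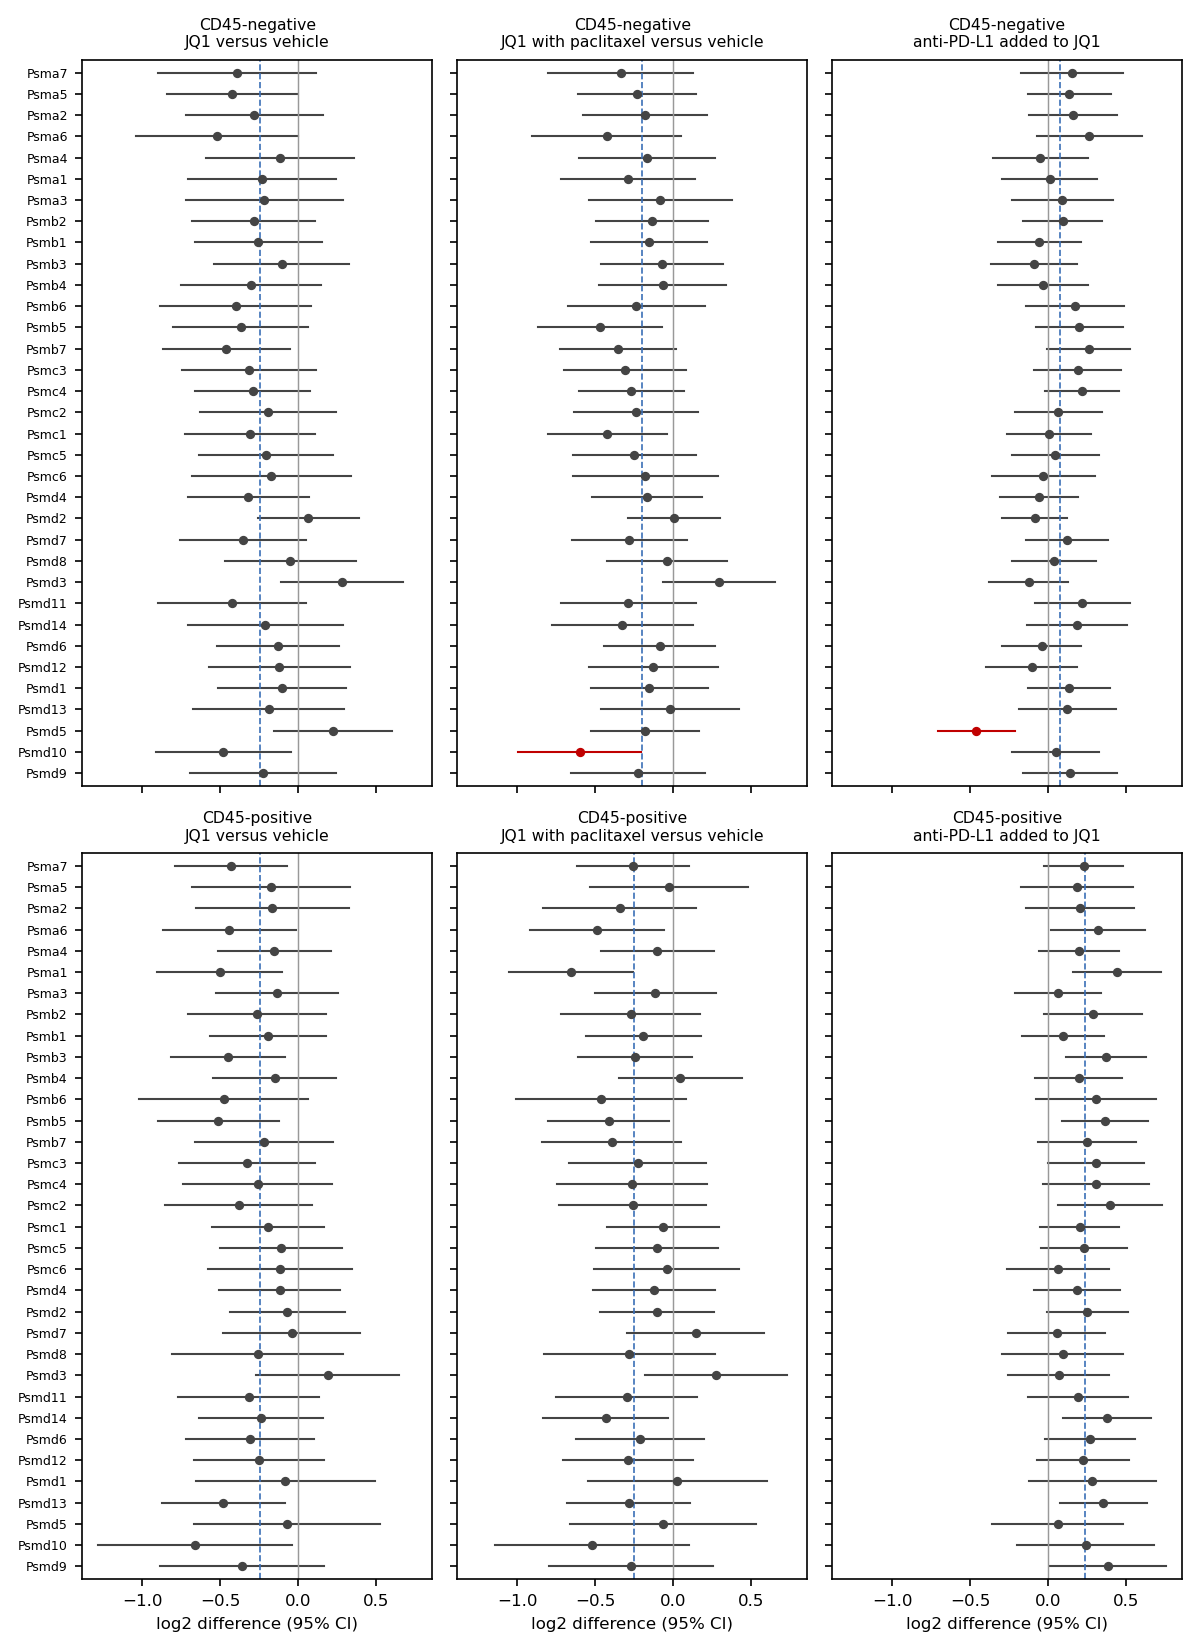
Log2 difference of FPKM + 1 (x axis) with its 95% confidence interval for each of the 34 members in 3 comparisons and both fractions, red where limma's adjusted p was under 0.05 and with a dashed line at the median member. Psmd10 (JQ1 with paclitaxel against vehicle) and Psmd5 (anti-PD-L1 added) are red in CD45-negative cells, and all 34 points for added anti-PD-L1 are above 0 in CD45-positive cells.

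Adding paclitaxel to JQ1 was read in the same way, as a mean without and with anti-PD-L1. In CD45-negative cells the median was 0.04 (all genes -0.04), no member passed (3.56% of genes did) and 1, Psmd5, had an unadjusted p under 0.05 (20.4%), at -0.26 ± 0.11 (limma adjusted p = 0.214). The lid subunit Psmd11 was at 0.27 ± 0.14 (adjusted p = 0.304). The median was -0.07 without JQ1 replicate 1, -0.01 without replicate 3 of JQ1 with paclitaxel, 0.14 without JQ1 replicate 2, 0.08 without 3-drug replicate 2, 0.01 without 3-drug replicate 1, and 0.06 without replicate 1 of JQ1 with paclitaxel, so its sign rested on single libraries. Of mitotic genes 5 of 10 were called lower, of neutrophil markers 2 of 4 tested, of erythroid markers 2 of 4 and of macrophage and monocyte markers 1 of 9, and 2 of 7 fibroblast markers were called higher. The part of these in the result was not tested. In CD45-positive cells the median was 0.11 (all genes -0.01), no member passed (0.0387% of genes did), and 2 had an unadjusted p under 0.05 (9.45%), the ATPase Psmc1 at 0.28 ± 0.11 (limma adjusted p = 0.484) and Psma4 at 0.26 ± 0.11 (adjusted p = 0.525). That median was 0.05 without 3-drug replicate 1, 0.17 without 3-drug replicate 2 and 0.07 without JQ1 replicate 2. No member lay apart in CD45-negative cells (1.57% of genes higher, 1.46% lower) and 1, Psmd7, did in CD45-positive cells, higher (0.986% higher, 1.72% lower).

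The interaction asked whether anti-PD-L1 acted differently with paclitaxel than without. No member passed in CD45-negative cells (0.00928% of genes did) or in CD45-positive cells (0.0% did), and 0 members in either had an unadjusted p under 0.05 (7.15% of genes in CD45-negative and 10.3% in CD45-positive cells). The intervals were wide, with a median half-width of 0.56 in CD45-negative and 0.61 in CD45-positive cells, against 0.28 and 0.31 for the effect of adding anti-PD-L1. The largest estimate of all 476 was here, for Psmd5 in CD45-positive cells (0.69 ± 0.37, limma adjusted p = 0.556). Psma4 followed at 0.41 (adjusted p = 0.558), and in CD45-negative cells Psmd2 was at 0.37 ± 0.19 (adjusted p = 0.742) and Psmd5 at 0.29 ± 0.23 (adjusted p = 0.842).

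The spread between libraries of 1 group was smaller once a shift common to the members was taken out. The median member's residual SD within groups was 0.160 on the log2 scale in CD45-positive and 0.208 in CD45-negative cells. All genes had 0.279 and 0.220 in the same order. Genes of like level, between the members' quartiles, had 0.215 in CD45-positive and 0.190 in CD45-negative cells. Against those, the members spread less in CD45-positive and more in CD45-negative cells. When each library's median member was subtracted, the median member's SD became 0.116 in CD45-positive and 0.103 in CD45-negative cells. The SD was smaller for 24 members in CD45-positive and 32 in CD45-negative cells. This subtraction uses the members themselves, so some decrease is built in. The largest SD after it was that of Psmd5 in CD45-positive cells, 0.356 after and 0.266 before, and of Psmd2 in CD45-negative cells, 0.186 after and 0.107 before, which had been the smallest of the 34 there. The smallest after it were those of Psma7 in CD45-positive (0.047) and Psma5 in CD45-negative cells (0.031).

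The immunoproteasome genes, which replace the catalytic members, passed the test in 3 comparisons in CD45-negative cells and in none in CD45-positive cells, where fewer genes passed overall. Psmb8 had 232 and 285 FPKM with JQ1, 331 and 318 FPKM with JQ1 and anti-PD-L1, 232, 302 and 308 FPKM with JQ1 and paclitaxel, and 436, 414 and 407 FPKM in the 3-drug group, against 352 and 390.0 FPKM with vehicle. Psmb10 had 65.6 and 68.7 FPKM with JQ1, 104 and 82.0 FPKM with JQ1 and anti-PD-L1, 47.4, 69.7 and 69.7 FPKM with JQ1 and paclitaxel, and 120.3, 125 and 117 FPKM in the 3-drug group, against 97.1 and 124 FPKM with vehicle. Both were higher in every library with anti-PD-L1 than in every JQ1 or JQ1 with paclitaxel library.

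With added anti-PD-L1 Psmb10 rose by 0.71 ± 0.13 on the log2 scale (limma adjusted p = 0.0024) and Psmb8 by 0.46 ± 0.11 (adjusted p = 0.0109), while Psmb9 was at -0.01 (adjusted p = 0.939). The call of Psmb10 was lost in 0 of 19 alternatives and that of Psmb8 in 1, with 1 value per mouse code. With JQ1, against vehicle, Psmb10 fell by 0.70 ± 0.20 (limma adjusted p = 0.0363) and Psmb9 by 0.55 ± 0.15 (adjusted p = 0.0320), and Psmb8 was at -0.52 ± 0.17 (adjusted p = 0.0612). Psmb9 had 110 and 129 FPKM with JQ1, against 172 and 177 FPKM with vehicle. Of 19 alternatives 9 lost the JQ1 call of Psmb10 and 6 that of Psmb9. Among them in each case was the omission of JQ1 replicate 1 or of either vehicle library. Both calls were also lost with relative depth as a covariate, with 1 value per mouse code and with the compared groups alone. Relative depth, read from steps between low values, was 0.554 and 0.653 in the JQ1 libraries and 1.79 and 1.13 in the vehicle libraries. With JQ1 and paclitaxel Psmb10 fell by 0.83 ± 0.19 (adjusted p = 0.0100), lost in 2 of 19, namely with 1 value per mouse code and without vehicle replicate 2.

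As a ratio of summed FPKM, the 3 immunoproteasome genes stood to the 3 constitutive ones at 1.21 ± 0.160 with JQ1, 1.23 ± 0.0267 with JQ1 and anti-PD-L1, 1.23 ± 0.0506 with JQ1 and paclitaxel, 1.57 ± 0.252 in the 3-drug group and 1.34 ± 0.0755 with vehicle in CD45-negative cells (SD, n of 2 or 3). In CD45-positive cells it was 1.04 ± 0.365, 0.777 ± 0.0417, 0.936 ± 0.0801, 1.09 ± 0.198 and 0.878 ± 0.200 in the same order of groups (SD, n = 2 each). Ratios were not tested. In CD45-negative cells those of the 3-drug group (1.38 to 1.86) overlapped vehicle (1.29 to 1.40) and lay above every other group on JQ1. JQ1 with anti-PD-L1 (1.21 to 1.24) and JQ1 with paclitaxel (1.17 to 1.27) lay below vehicle, and the other pairs of groups overlapped. In CD45-positive cells JQ1 with anti-PD-L1 (0.747 to 0.806) lay below JQ1 with paclitaxel (0.879 to 0.993) and the 3-drug group (0.947 to 1.23). The other pairs overlapped there. Psmb8 was above Psmb5 in all 22 libraries and Psmb9 below Psmb6 in all 22.

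**Figure D5:**
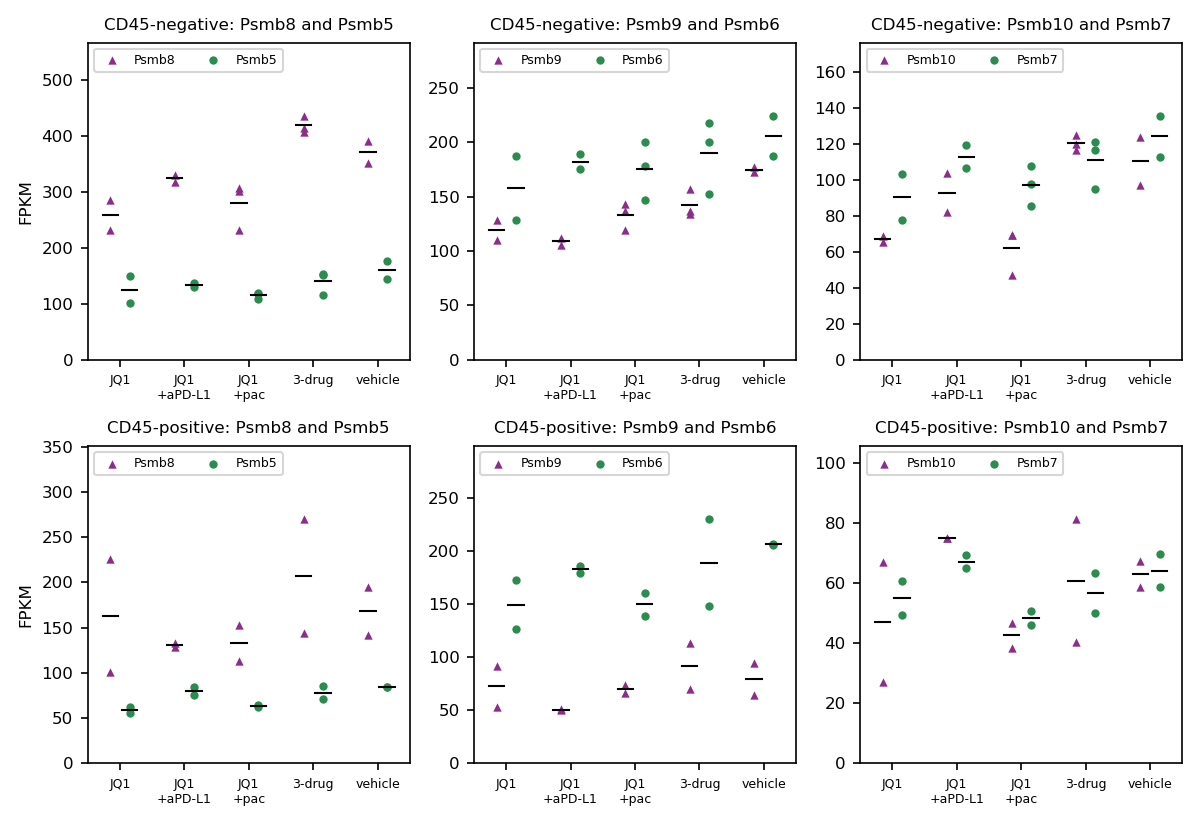
FPKM (y axis from 0) of each immunoproteasome gene (triangles) and the constitutive catalytic gene it replaces (circles), by treatment, with a point for each library and a bar at the group mean, CD45-negative above and CD45-positive below. In CD45-negative cells Psmb8 and Psmb10 have their highest group means in the 3-drug group. There Psmb8, at 407 to 436 FPKM, lies above both vehicle libraries. Psmb10, at 117 to 125 FPKM, overlaps with vehicle, as do Psmb5, Psmb6 and Psmb7.

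Those of the other proteasome genes, listed by function, that passed did so in CD45-negative cells, where 14.8% of all genes passed for JQ1, 17.6% for JQ1 with paclitaxel, 3.56% for added paclitaxel and 25.0% for added anti-PD-L1. In CD45-positive cells at most 4.84% of all genes passed in any comparison. Of the 5 activators and inhibitor genes Psme1, a subunit of the PA28 activator, fell with JQ1 (-0.56 ± 0.18, limma adjusted p = 0.0484), with 132 and 176 FPKM, against 226 and 224 FPKM with vehicle; 16 of 19 alternatives lost the call. Its partner Psme2 was called in no comparison. The 5 chaperones of 20S assembly, Pomp among them, were called in no comparison. Of 7 genes of other cap subunits and associated enzymes 1, the ubiquitin ligase Ube3c, rose with JQ1 (0.73, adjusted p = 0.0339) and fell with added anti-PD-L1 (-0.51, adjusted p = 0.0155).

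Among 7 regulators of proteasome genes, Nfe2l1 itself was called in no comparison. It was at 0.28 (limma adjusted p = 0.3001) with JQ1 and 0.33 (adjusted p = 0.177) with JQ1 and paclitaxel in CD45-negative cells, and at 0.50 (adjusted p = 0.237) with JQ1 in CD45-positive cells. Ngly1, the glycanase that processes the Nrf1 protein, had 7.37 and 10.2 FPKM with JQ1, against 3.56 and 4.33 FPKM with vehicle, in CD45-negative cells, and rose by 0.97 ± 0.20 (limma adjusted p = 0.0075). It also rose with JQ1 and paclitaxel (0.61, adjusted p = 0.0342) and fell with added anti-PD-L1 (-1.005, adjusted p = 0.0003). Of the other regulators, Nfe2l2, which encodes Nrf2, rose with JQ1 and paclitaxel (0.89, adjusted p = 0.0214), and of the small Maf partners of Nrf1 and Nrf2, Mafk rose with added paclitaxel (0.78, adjusted p = 0.0180), and Maff (0.86, adjusted p = 0.0044) and Mafg (0.44, adjusted p = 0.0348) with added anti-PD-L1. Of the 6 ubiquitin precursor and activating enzyme genes 1, Uba6, rose with JQ1 (0.67, limma adjusted p = 0.0306) and fell with added anti-PD-L1 (-0.41, adjusted p = 0.0240).

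The 9 genes of shuttle receptors and the Vcp complex, which bring substrates to the proteasome, held 3 that were called. The autophagy receptor Sqstm1 fell with JQ1 (-1.31 ± 0.20, limma adjusted p = 0.0019) and with JQ1 and paclitaxel (-0.86, adjusted p = 0.0076). It rose with added paclitaxel (0.69, limma adjusted p = 0.0180) and with added anti-PD-L1 (0.61, adjusted p = 0.0051). The unfoldase Vcp rose with JQ1 and paclitaxel (0.44, limma adjusted p = 0.0427) and fell with added anti-PD-L1 (-0.29, adjusted p = 0.0457). Ubqln4 rose with added anti-PD-L1 (0.37, limma adjusted p = 0.0292). Of the calls of these other proteasome genes, listed by function, only that of Psme1 was followed under the alternatives.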

How the data were processed

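Bulk RNA-seq of 22 libraries was analysed, 12 of CD45-negative and 10 of CD45-positive cells, prepared with a SMARTer low-input kit per the labels' protocols. Reads were aligned with STAR 2.5.1b to mm9 per the submitters' processing notes; the tool that made gene values, and whether strand was used in counting, were not stated in any source used here. The authors deposited 1 table per fraction of 24353 genes, taken to be in FPKM from its values, since columns differ in sum (296682 to 370513 in CD45-negative and 315256 to 364118 in CD45-positive libraries) and are not whole; the labels speak of counts. Values were thus not tested with a count model, and absolute sequencing depth is unknown.

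Symbols were matched to GRCm38 names for 23458 rows. Genes with at least 1 FPKM in 2 or more libraries were tested (10780 in CD45-negative and 10340 in CD45-positive cells) on log2(FPKM + 1), which understates changes of low genes. The test was limma 3.58.1 in R 4.3.3 (two-sided, trended eBayes), 1 fit of 5 groups per fraction, with Benjamini-Hochberg adjustment over all genes tested and a threshold of 0.05. The script was tested on simulated data. Fractions were fitted separately and not tested against each other. Errors of log2 differences are SEs. Promoter windows came from RefSeq, and figures and summaries from Python 3.11.15 with pandas 2.3.3.

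The members and gene lists were chosen with earlier results of these data known. Genes named in each comparison were the called members or, with none, the 2 of lowest p, the highest and lowest of each role by level, the catalytic subunits and their counterparts, Nfe2l1, Pomp, Psme1 and Psme2, and called genes of other lists. Psmd3, Psma6 and members whose groups lay apart were named after their values were seen. Alternatives were another pseudocount, no filter, 2 scalings, the compared groups alone, relative depth as a covariate, 1 value per mouse code and leaving out each library.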

Additional observations from a re-analysis of the deposited data

How the results depend on the processing

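Of 252 recomputed counts of called members 241 kept to within 1.5 times the reported count and 11 moved, and no result changed direction among those that were called. The reported count was 0 except in the comparisons that gave the calls of Psmd10 and Psmd5. Most of the 241 were thus counts of 0 that stayed 0, and they say little on how firm the calls are. The 1 call with JQ1 and paclitaxel against vehicle in CD45-negative cells became 0 with no filter and 0 with 1 value per mouse code, and was 0 to 1 when single libraries were left out, with 0 without either library of JQ1 with anti-PD-L1, any of JQ1 with paclitaxel, or either vehicle library. The 1 call on adding anti-PD-L1 there became 0 with 1 value per mouse code. With JQ1 against vehicle in CD45-negative cells the count of 0 was 0 to 1 when single libraries were left out, 1 without JQ1 replicate 2. The cause was not tested. Between treatment groups no paired analysis was possible because replicate numbers were given in accession order and name libraries only. Titles of different groups also carry different mouse codes. The fractions were matched by tumour code in the 10 tumours with both, for the ratios above, which were not tested.

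Over all genes the number called moved far more: in CD45-negative cells 21 to 1743 for JQ1 (1592 reported), 274 to 1893 for JQ1 with paclitaxel (1893) and 738 to 2880 for added anti-PD-L1 (2691), and in CD45-positive cells 0 to 138 for JQ1 (108), 0 to 692 for JQ1 with paclitaxel (500) and 0 to 120 for added anti-PD-L1 (86). The other ranges in CD45-negative cells were 1 to 104 for JQ1 with anti-PD-L1 (27), 5 to 322 for the 3-drug group (176), 7 to 458 for added paclitaxel (384) and 0 to 7 for the interaction (1), and in CD45-positive cells 0 to 21 (3), 0 to 23 (14), 0 to 8 (4) and 0 to 10 (0) in the same order. With 2 or 3 libraries a group, the median half-width of the members' 95% intervals against vehicle was 0.39 to 0.43 on the log2 scale, before any adjustment for the number of genes.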
